A study of Aspergillus niger with 24 samples.

Results

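The gene described here is glaA, carried in the deposited table as the ID NRRL3_08300, which is 1 of the 11846 genes listed. It was chosen by that ID alone and read in all 24 libraries. In Aspergillus niger, a filamentous fungus grown industrially for secreted enzymes, glaA encodes glucoamylase. This secreted enzyme releases glucose from the ends of starch chains. The table gives no gene names, and 0 of its IDs matched the RefSeq gene table at hand, in which 1 gene with other locus tags carries the symbol glaA. The pairing of NRRL3_08300 with the name glaA was therefore taken as given and was not checked against a sequence.

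The TLL group is a strain of Aspergillus niger CICC2629 made to express TLL, a lipase (a fat-splitting enzyme), and the WT group is the wild type of CICC2629. Both grew at 28 °C on potato dextrose agar, and hyphae were sampled on 4 labelled days with 3 libraries per strain and day. The series gives its sampling times as 0, 24, 48 and 72 hours, and its libraries carry days 1 to 4 without an hour tied to a day. For the lipase gene, the sources used here give no promoter, integration site or number of transformants.

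Starch breakdown in Aspergillus is shared among alpha-amylases, which cut inside the chains, glucoamylase, which works from their ends, and alpha-glucosidases, which split the short products. The transcription factor AmyR switches these genes on in the presence of starch, maltose or isomaltose, and the carbon repressor CreA holds many of them down when glucose is plentiful. Potato dextrose agar supplies both starch and glucose. The glaA promoter is also widely used to drive introduced genes in this species. A starch list of 7 further names (aamA, amyA, amyB, agdA, agdB, amyR and creA) could not be read, since 0 of them could be tied to an ID of the table.

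The unit, TPM, is a gene's share of its library's transcripts after division by gene length. It keeps no read number, so the depth and the counting error of each value are unknown. Each library summed to between 999999 and 1000000 TPM, and 7918 to 8935 genes reached 1 TPM in a library. Before the results, 2 features of the libraries need stating. WT day 1 replicate 1 and TLL day 1 replicate 3 lay apart from their groups, with correlations across genes as low as 0.923 within WT day 1 and 0.920 within TLL day 1, against 0.983 or more within every later group. On the second principal component WT day 3 (60.6 to 66.3) and TLL day 4 (52.8 to 54.9) lay far above the other 18 libraries, the highest of which lay at 23.7. Whether the 3 libraries of a group stem from separate cultures is not stated, so the p-values rest on a spread between libraries that may be technical.

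glaA was detected in every library, at 6.2 to 73.48 TPM, an 11.9-fold span. In the TLL strain it rose in steps and peaked at day 3, and at day 4 it was back at the level of day 1 or slightly below, a difference that was not called. In WT it stayed low through day 3 and was high at day 4 alone. All 3 TLL libraries of day 3 and all 3 WT libraries of day 4 exceeded 40 TPM, and none of the other 18 libraries exceeded 25.92 TPM.

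The 3 TLL libraries, in the order of their replicate numbers, held 8.68, 8.96 and 9.72 TPM of glaA at day 1 and 20.3, 25.92 and 23.23 TPM at day 2. They held 73.48, 50.36 and 47.74 TPM at day 3 and 6.2, 8.3 and 7.08 TPM at day 4. Within TLL the libraries of one day did not overlap those of any other day. How often other genes separated in this way, here or in the comparisons below, was not counted. The TLL group means were 9.12 ± 0.538 TPM at day 1, 23.2 ± 2.81 TPM at day 2, 57.2 ± 14.2 TPM at day 3 and 7.19 ± 1.05 TPM at day 4 (SD, n = 3 each). The day 3 group was the least even of all, since replicate 1 stood well above the other two.

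The 3 WT libraries held 7.41, 7.94 and 8.21 TPM at day 1 and 13.88, 14.86 and 12.69 TPM at day 2. They held 11.37, 8.24 and 10.68 TPM at day 3 and 71.37, 64.52 and 54.54 TPM at day 4. The WT libraries of one day did not overlap those of another either, although days 1 and 3 nearly met, at 8.21 and 8.24 TPM. The WT group means were 7.85 ± 0.407 TPM at day 1, 13.8 ± 1.09 TPM at day 2, 10.1 ± 1.64 TPM at day 3 and 63.5 ± 8.46 TPM at day 4 (SD, n = 3 each).

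**Figure D1:**
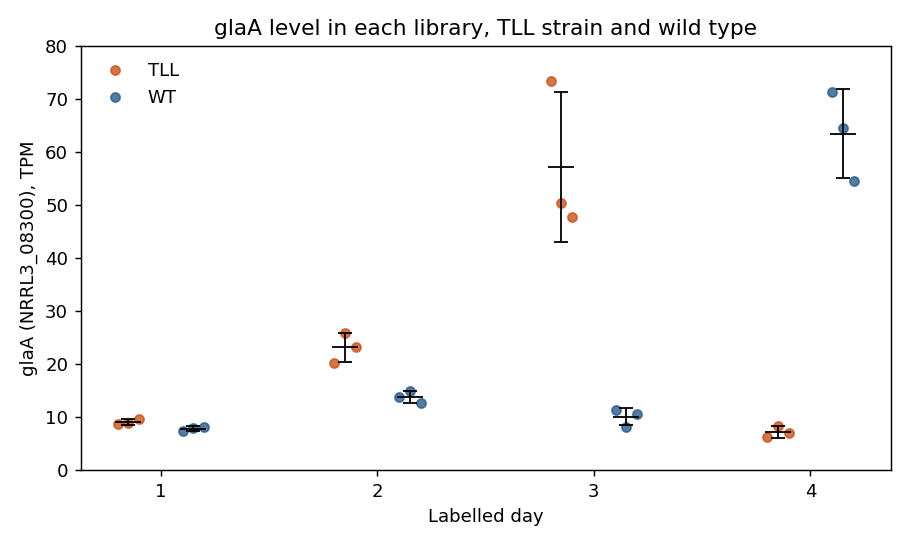
glaA in TPM (vertical axis, linear) in each of the 24 libraries by labelled day, with points for libraries, orange for TLL and blue for WT, and black bars for the mean ± SD of n = 3. TLL peaks at day 3 (57.2 TPM) and WT at day 4 (63.5 TPM), and all other group means lie at or below 23.2 TPM.

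These levels were moderate for this mycelium. glaA ranked 4525 of 11846 genes by its mean over all libraries, 24.0 TPM, and its rank within a library ran from 2006 in WT day 4 replicate 1 to 6937 in TLL day 4 replicate 1. The median of the genes that reached 1 TPM lay between 19.8 and 27.8 TPM in every library. glaA thus stood above that median in TLL day 3 and WT day 4 and below it in TLL day 4, in WT days 1 to 3 and in TLL day 1. In TLL day 2 it lay at 20.3, 25.92 and 23.23 TPM beside medians of 24.7, 27.5 and 27.8 TPM. At its highest, in TLL day 3 replicate 1, glaA took 0.00735% of the library's TPM, while the most abundant gene of a library took 1.79% to 13.7%.

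Tests were made with limma on log2(TPM + 1). They covered the 9558 genes that reached 1 TPM in 3 or more libraries, and a gene was called where its p, adjusted over all of these, lay under 0.05. A fold on this scale understates the change of a gene near 1 TPM. The residual spread of glaA was 0.19 on this scale, against a median of 0.26 over all tested genes, and 20.2% of tested genes had a smaller one. The group means of glaA spanned 2.98 log2 units, against a median span of 1.44, and 87.9% of tested genes spanned less. In mycelium, fewer expressing hyphae and less transcript per hypha cannot be told apart.

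At day 1 the strains were close. glaA stood at 8.68 to 9.72 TPM in TLL, against 7.41 to 8.21 TPM in WT, and the libraries did not overlap. The log2 difference of 0.19 (SE 0.16, 95% interval -0.15 to 0.53) was not called (limma adjusted p = 0.519), where 7.31% of tested genes were. The SE rests on 1 spread fitted over all 8 groups and is the same for each pair of groups. On the log2 scale the SD of glaA was 0.076 in TLL day 1 and 0.067 in WT day 1, against 0.33 in TLL day 3 (n = 3 each). The SE is thus not a measure of the day 1 spread alone. With 3 libraries against 3, an exact two-sided permutation test cannot go below 0.1, the value reached on each of the 4 days. Without both day 1 libraries that lay apart, the difference was 0.11 (limma adjusted p = 0.740).

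At day 2 glaA was higher in TLL, by 1.68 times in mean TPM. The TLL libraries held 20.3 to 25.92 TPM, against 12.69 to 14.86 TPM in WT, without overlap. The log2 difference was 0.70 (SE 0.16, limma adjusted p = 0.0104), and 8.22% of tested genes were called higher in TLL. The median tested gene was itself higher by 0.19 on that day, and after median-of-ratios scaling, which brings that median to 0.020, glaA differed by 0.51 and was not called (limma adjusted p = 0.0819). Nor was it called without WT day 2 replicate 3 (0.65, adjusted p = 0.0686) or without TLL day 2 replicate 2 (0.62, adjusted p = 0.0698).

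At day 3 glaA stood 5.66 times higher in TLL in mean TPM. The lowest TLL library held 47.74 TPM, and the highest WT library held 11.37 TPM. The log2 difference was 2.38 (SE 0.16, 95% interval 2.04 to 2.71, limma adjusted p = 5.44e-10). On that day 32.2% of tested genes were called higher in TLL, so a call in this direction was common. Its size was not, as 98.3% of tested genes had a lower difference. The median tested gene differed by 0.19.

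At day 4 the sides were exchanged, and glaA was 8.82 times lower in TLL in mean TPM. TLL libraries held 6.2 to 8.3 TPM, against 54.54 to 71.37 TPM in WT. The log2 difference was -2.98 (SE 0.16, 95% interval -3.32 to -2.64, limma adjusted p = 2.39e-11). Of the tested genes, 26.8% were called lower in TLL and 1.20% had a difference below that of glaA. The call was kept in every alternative tried, with log2 differences from -3.13 to -2.49 across settings.

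**Figure D2:**
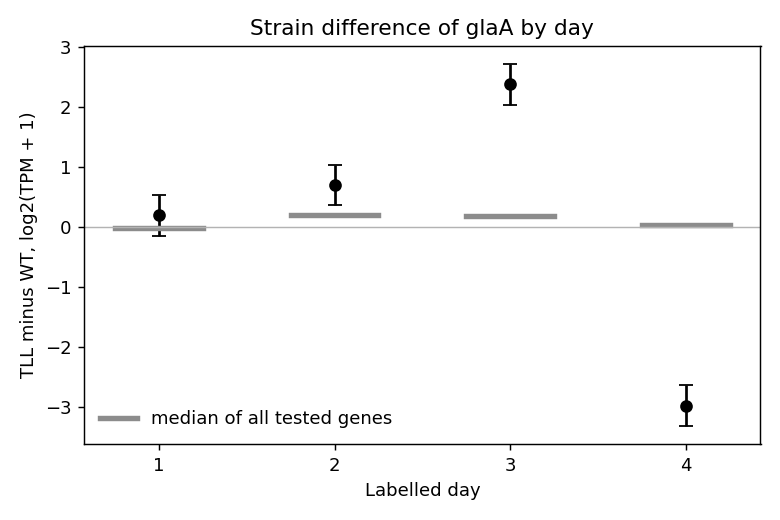
Difference of glaA between strains, TLL minus WT on the log2(TPM + 1) scale (vertical axis), by labelled day. Points are limma estimates with 95% intervals, and grey bars are the median of the 9558 tested genes. The difference is 0.19 at day 1, 0.70 at day 2, 2.38 at day 3 and -2.98 at day 4.

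The strain difference of glaA depended on the day (limma F = 189, adjusted p = 3.24e-12). Such a dependence was called for 63.1% of tested genes, and 99.6% of tested genes had a smaller F. The change of the strain difference from day 3 to day 4 was -5.35 (SE 0.23, limma adjusted p = 3.18e-13), where 33.4% of tested genes were called in this direction and 0.879% had a lower value. From day 2 to day 3 it was 1.67 (SE 0.23, limma adjusted p = 1.98e-05), with 15.1% called in this direction. From day 1 to day 2 it was 0.51 (SE 0.23, limma adjusted p = 0.181) and not called, against 9.53% of tested genes called either way. With library weights it was 0.56 and was called (limma adjusted p = 0.00991).

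Averaged over the 4 days, the strain difference of glaA was not called, the differences of days 3 and 4 having opposite signs. The mean log2 difference was 0.073 (SE 0.081, 95% interval -0.096 to 0.24, limma adjusted p = 0.504), while 38% of tested genes were called. With median-of-ratios scaling it was -0.039 and with quantile normalization -0.071. An exact two-sided permutation test with strain labels exchanged within days gave p = 0.814 over 160000 arrangements. It used the same mean, in which days 3 and 4 offset each other, so it does not show whether the strains differed on any day. The set of calls that glaA showed over the 4 days (none, higher, higher, lower in TLL) was shared by 2.21% of tested genes, 211 genes with glaA itself.

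Within TLL, glaA changed across the days (limma F = 125, adjusted p = 2.16e-11), where 80.8% of tested genes were called. It rose 2.54-fold in mean TPM between day 1 and day 2, which is 1.25 on the log2 scale (SE 0.16, limma adjusted p = 2.08e-06). In this step 38.4% of tested genes were called higher. glaA rose again 2.47-fold by day 3, also by 1.25 (SE 0.16, limma adjusted p = 2.14e-05). Only 4.69% of tested genes were called higher in this step, and 99.0% had a lower change than glaA. From day 3 to day 4 it fell by 2.81 on the log2 scale (SE 0.16, limma adjusted p = 8.63e-11), to 0.126 of the day 3 mean. In that step 25.7% of tested genes were called lower, and 0.847% had a log2 change below that of glaA.

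TLL day 4 ended near where the strain began. The libraries held 6.2 to 8.3 TPM at day 4 and 8.68 to 9.72 TPM at day 1. The log2 change, -0.31 (SE 0.16, limma adjusted p = 0.0987), was not called, while 65.9% of tested genes were called either way between these days. With median-of-ratios scaling the change was -0.50 (adjusted p = 0.0124), with quantile normalization -0.70 (adjusted p = 0.00110) and with library weights -0.21 (adjusted p = 0.0279), and it was then called.

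Within WT, glaA also changed across the days (limma F = 126, adjusted p = 2.59e-11), where 77.2% of tested genes were called. It rose 1.76-fold in mean TPM between day 1 and day 2, by 0.74 on the log2 scale (SE 0.16, limma adjusted p = 0.00134). In this step 22.9% of tested genes were called higher. From day 2 to day 3 glaA fell by 0.43 on the log2 scale (SE 0.16, limma adjusted p = 0.0334), where 33.5% of tested genes were called lower. The median tested gene changed by -0.17 in the same step, and with median-of-ratios scaling glaA changed by -0.25 and was not called (adjusted p = 0.214). The call was also lost without WT day 2 replicate 1 (-0.42, adjusted p = 0.0703), WT day 2 replicate 2 (-0.37, adjusted p = 0.105) or WT day 3 replicate 2 (-0.30, adjusted p = 0.169).

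The last WT step was the largest rise of glaA between neighbouring days in either strain. Day 4 libraries held 54.54 to 71.37 TPM, against 8.24 to 11.37 TPM at day 3, a 6.29-fold rise in mean TPM. The log2 change was 2.54 (SE 0.16, limma adjusted p = 1.67e-10). In this step 32.9% of tested genes were called higher, and 98.2% showed a log2 change below that of glaA. Against day 1 the rise at day 4 was 8.08-fold in mean TPM, or 2.86 on the log2 scale (SE 0.16, limma adjusted p = 1.50e-11). Between these days 29.4% of tested genes were called higher.

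The pattern of a rise in WT and a fall in TLL between days 3 and 4 was itself common, and was called in 16.1% of tested genes. Over all 6 steps of both strains, 24 genes with glaA itself, 0.251% of those tested, had the same calls as glaA. The 3 calls within TLL (higher, higher, lower) were shared by 0.963% and the 3 within WT (higher, lower, higher) by 9.5% of tested genes.

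**Figure D3:**
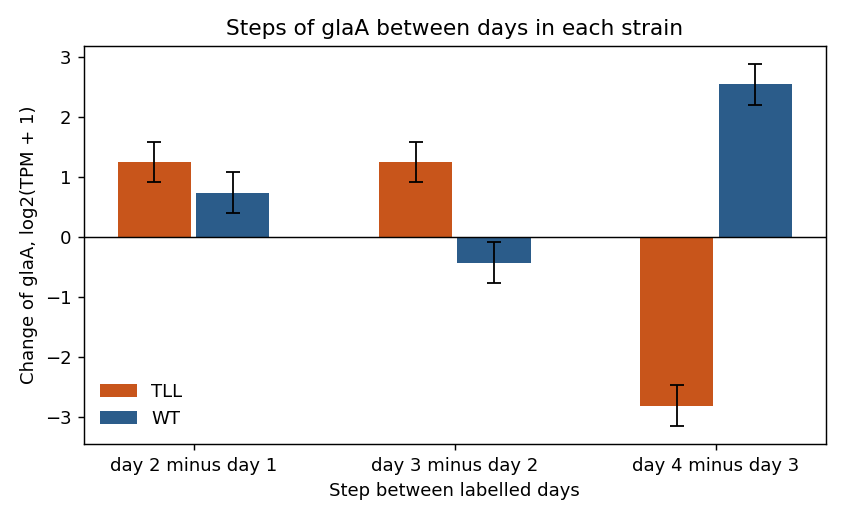
Change of glaA on the log2(TPM + 1) scale (vertical axis) in each step between labelled days, orange for TLL and blue for WT, with limma 95% intervals. Both strains rise in the step to day 2 (1.25 in TLL, 0.74 in WT), and in the step to day 4 TLL falls by 2.81 while WT rises by 2.54.

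Ordered by mean TPM, the groups ran from WT day 4 through TLL day 3, TLL day 2, WT day 2, WT day 3, TLL day 1 and WT day 1 to TLL day 4. Of the 28 pairs of groups, 22 were called and 6 were not. By pair, 7.31% (TLL day 1 against WT day 1) to 65.9% (TLL day 4 against TLL day 1) of all tested genes were called. Of the 7 pairs that neighbour each other in this order, 3 were called. These were TLL day 3 over TLL day 2, TLL day 2 over WT day 2, and WT day 2 over WT day 3. In these directions 4.69%, 8.22% and 33.5% of tested genes were called. The call of TLL day 2 over WT day 2 and that of WT day 2 over WT day 3 were lost under median-of-ratios scaling. Each was also lost without some single libraries. The high pair, TLL day 3 and WT day 4, overlapped and was not called (log2 difference -0.17, 95% interval -0.51 to 0.17, limma adjusted p = 0.580, where 11.8% of tested genes were called). Library weights moved this difference to -0.34 and called it (adjusted p = 0.0344).

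At the low end the libraries lay close together. WT day 3 and TLL day 1 overlapped, at 8.24 to 11.37 TPM and 8.68 to 9.72 TPM, with a log2 difference of 0.12 (limma adjusted p = 0.526), where 62.2% of tested genes were called. WT day 1 and TLL day 4 also overlapped, at 7.41 to 8.21 TPM and 6.2 to 8.3 TPM (log2 difference 0.12, limma adjusted p = 0.533), where 65.5% of tested genes were called.

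The groups that lay together on the second principal component, TLL day 4 and WT day 3, both had low glaA. TLL day 4 held 6.2 to 8.3 TPM, against 8.24 to 11.37 TPM in WT day 3, so that 1 WT library lay just below the highest TLL library. The log2 difference of -0.43 (SE 0.16, limma adjusted p = 0.0337) was called, and 16.9% of tested genes were called lower in TLL. The call was lost when any of 4 single libraries was left out. These were WT day 3 replicate 1 (-0.35, adjusted p = 0.133), WT day 3 replicate 3 (-0.39, adjusted p = 0.0998), TLL day 4 replicate 1 (-0.35, adjusted p = 0.135) and TLL day 4 replicate 3 (-0.43, adjusted p = 0.0732).

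Of the IDs next to glaA in number, NRRL3_08299 stayed at 0.1 to 0.85 TPM in all libraries and was not tested. NRRL3_08301, at 7.52 to 29.48 TPM, differed between strains in the same direction as glaA at days 3 and 4, with smaller estimates. Calls in these directions were common, at 32.2% of tested genes at day 3 and 26.8% at day 4. The log2 differences of NRRL3_08301 at days 1 and 2 were -0.16 and 0.21, and neither was called (limma adjusted p = 0.701 and 0.555). Nor was its TLL step from day 2 to day 3 (0.21, limma adjusted p = 0.554). Its group means lay nearest to those of glaA in TLL day 2, at 21.8 ± 1.67 TPM, and TLL day 4, and furthest below them in TLL day 3 and WT day 4 (SD, n = 3 each). At day 3 the TLL mean of NRRL3_08301 was 25.3 ± 0.397 TPM, against a WT mean of 12.9 ± 1.14 TPM, a log2 difference of 0.93 (SE 0.21, limma adjusted p = 0.00110). At day 4 its TLL mean was 8.74 ± 1.10 TPM, against a WT mean of 24.8 ± 4.02 TPM (SD, n = 3 each), a log2 difference of -1.40 (SE 0.21, limma adjusted p = 1.45e-05). The files give neither ID a name, and whether the difference in size from glaA exceeds error was not tested.

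Likeness of pattern was measured as the root mean square difference between the 8 group means of log2(TPM + 1), each gene centred on its own mean, over the 6442 genes with a mean of at least 10 TPM. The median distance to glaA was 1.17 log2 units, 5 genes lay within 0.5 and 0 within 0.25. The closest was NRRL3_10259, at a distance of 0.42, with a day 3 mean of 39.7 ± 5.61 TPM in TLL, against 10.5 ± 1.10 TPM in WT (SD, n = 3 each). Its day 4 mean was 9.10 ± 1.49 TPM in TLL, against 43.1 ± 17.6 TPM in WT (SD, n = 3 each). The next was NRRL3_08858, at 0.46, with a day 3 mean of 70.8 ± 4.31 TPM in TLL, against 30.3 ± 4.18 TPM in WT (SD, n = 3 each). At day 4 its mean was 23.9 ± 1.51 TPM in TLL, against 122.3 ± 17.7 TPM in WT (SD, n = 3 each). In the TLL step from day 2 to day 3, in which glaA rose, neither was called, with a log2 change of 0.51 for NRRL3_10259 (limma adjusted p = 0.541) and of -0.019 for NRRL3_08858 (limma adjusted p = 0.962).

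The most opposite patterns, after turning the sign of the profile, were those of NRRL3_04911, at a distance of 0.49, and NRRL3_11254, at 0.50. NRRL3_11254 averaged 5.35 ± 2.74 TPM in TLL day 3, against 33.7 ± 2.21 TPM in WT day 3 (log2 difference -2.55, SE 0.35). At day 4 its TLL mean was 37.8 ± 6.84 TPM, against a WT mean of 5.52 ± 1.96 TPM (SD, n = 3 each), a log2 difference of 2.61 (SE 0.35). NRRL3_04911 had log2 differences of -0.84 at day 3 (limma adjusted p = 0.443, not called) and 2.43 at day 4 (limma adjusted p = 0.0204, SE 0.85 each). Its steps from day 3 to day 4 were not called in WT (limma adjusted p = 0.111) or in TLL (limma adjusted p = 0.120). Its day 1 values were uneven, at 23.0 ± 30.6 TPM for TLL, against 26.6 ± 36.7 TPM for WT (SD, n = 3 each). The 4 IDs were chosen by how like or opposite to glaA they were in these same libraries. Their strain differences follow from that choice and are a description, and the files give them no name.

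**Figure D4:**
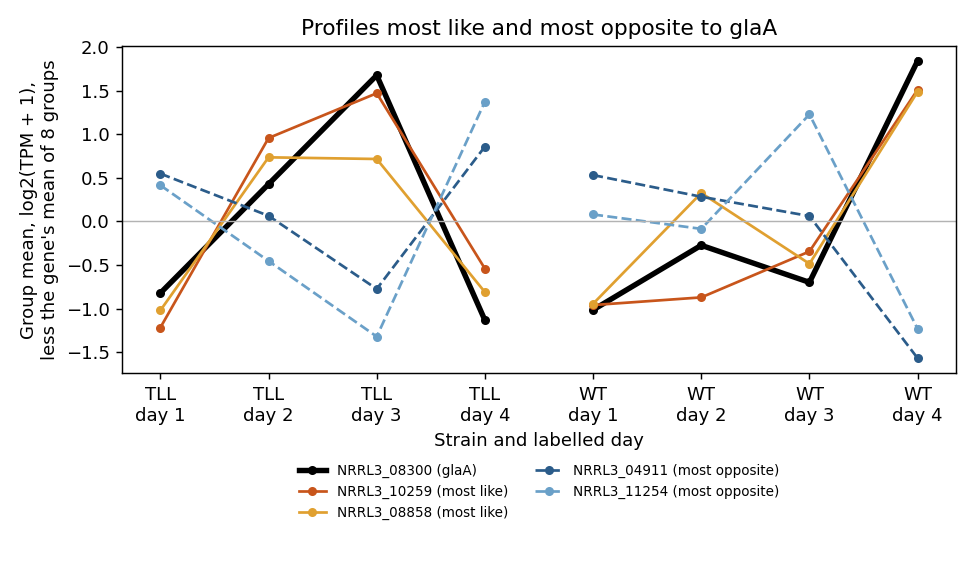
Group means on the log2(TPM + 1) scale, each less the gene's mean over the 8 groups (vertical axis), for glaA (black), the IDs most like it (solid) and those most opposite (dashed), with TLL days 1 to 4 left of WT days 1 to 4. The like IDs lie 0.42 and 0.46 log2 units from glaA, and all 3 are high in TLL day 3 and WT day 4, where both opposite IDs are low.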

How the data were processed

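Hyphal RNA of both strains was made into standard Illumina libraries, per the labels' protocols. The authors deposited TPM values in 1 table with 24 library columns, of which 0 columns belonged to no sample. The submitters' processing notes name HISAT2, StringTie and Cufflinks without roles, and the table's name refers to RSEM. The sources used here give no genome build, annotation or strand setting. TPM is relative to the library, so a rise of abundant genes lowers all others, and it keeps no depth.

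Columns were matched to samples by library name. TPM was transformed to log2(TPM + 1), and a mean for each of 8 groups was fitted. The fit used limma 3.58.1 under R 4.3.3, with variances moderated by empirical Bayes along an intensity trend and 16 residual degrees of freedom. The filter was 1 TPM in at least 3 libraries. Contrasts and F tests with 3 degrees of freedom were two-sided, with Benjamini-Hochberg adjustment over all tested genes. Permutation tests were exact. The model was run on simulated data with independent noise, which does not show how often calls are false in these libraries. Figures used matplotlib 3.10.9.

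The gene, lists, tests and alternatives were chosen with earlier results of these data known. The named IDs are glaA, the IDs next to it in number, and the 2 most like and the 2 most opposite in pattern. The changes of the strain difference from day 1 to day 2 and from day 2 to day 3 were added after seeing the data. Alternatives were quantile normalization, median-of-ratios scaling, pseudocounts of 0.1 and 5 TPM, filters at 5 TPM or none, library weights, no trend, a replicate block, a fit on the compared groups alone, and leaving out libraries or groups that lay apart or single libraries.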

Additional observations from a re-analysis of the deposited data

Results flagged for a closer look

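The strain difference of glaA differed between the labelled days by a test of the difference itself. The interaction of strain and day had a limma F of 189 (adjusted p = 3.24e-12). The strain difference changed by -5.35 log2 units from day 3 to day 4 (SE 0.23, limma adjusted p = 3.18e-13), with all 3 TLL libraries above all 3 WT libraries at day 3 and below them at day 4. It changed by 1.67 from day 2 to day 3 (SE 0.23, limma adjusted p = 1.98e-05), a contrast added after seeing the data. Between TLL day 3 and WT day 4, limma called 1129 of 9558 genes (adjusted p under 0.05), against 4505 between the strains at day 3 and 5175 at day 4, and TLL day 4 lay near WT day 3 on the second principal component, although 4593 genes were called between these groups. The labelled days 3 and 4 of both strains enter the values of glaA as given, and the changes above rest on these labels. Across the labels, glaA differed by -0.17 between TLL day 3 and WT day 4 and by -0.43 between TLL day 4 and WT day 3. Whether the labels carry the order of sampling was not tested.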

How the results depend on the processing

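The calls of glaA at days 3 and 4, in both F tests across days, in the interaction, in both TLL steps up and the TLL step down, and in the WT rises to day 2 and day 4 were kept under every setting that could be fitted and without any single library. Median-of-ratios scaling gave 0.51 for the day 2 strain difference, -0.25 for the WT step to day 3, -0.50 for TLL day 4 against day 1 and -0.039 for the mean strain difference, also in the permutation test. Quantile normalization gave 0.48, -0.29, -0.70 and -0.071 for the same 4 limma results. These values lost the calls of the day 2 difference and the WT step, gave a call in TLL day 4 against day 1, and reversed an uncalled mean. A pseudocount of 5 TPM ended the calls of the WT step to day 3 (-0.32) and of TLL day 4 against WT day 3 (-0.31). Library weights, whose estimation stopped short of its tolerance, called TLL day 4 against day 1 (-0.21), TLL day 3 against WT day 4 (-0.34) and the change of the strain difference from day 1 to day 2 (0.56). Without single libraries the day 2 difference was 0.62 to 0.79, the WT step to day 3 -0.51 to -0.30, and TLL day 4 against WT day 3 -0.56 to -0.35. The cause was not tested. The replicate block left every call of glaA as it was, with an interaction F of 178 and 6032 genes called for the interaction with and without it. The numbers are not stated to pair libraries. Same-numbered libraries of different groups correlated in their deviations at -0.64 to 0.44 over 84 pairs, with 11 over 0.1. Contrasts that use WT day 3 or TLL day 4 could not be fitted without these groups.

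Counts of called genes over the whole table moved more than 1.5 times in the comparisons given here, and by less in the others. At day 1 the count was 699, with 0 in a fit on that day alone and 4756 under library weights. At day 2 it was 928, with 240 to 5284 among the alternatives. The change of the strain difference from day 1 to day 2 had 911, with 126 to 4724, and that from day 2 to day 3 had 2588, with up to 5687. Library weights gave 6820 at day 3 against 4505, 6465 for the mean over days against 3636, 7794 against 4970 and 6898 against 4533 in the TLL steps to days 2 and 4, and 6906 against 4593 for TLL day 4 against WT day 3. The count of the TLL step to day 3 ran from 1128 to 4860 (1710 as reported), that of the WT step to day 2 from 1850 to 6297 (3298), that of TLL day 3 against WT day 4 from 551 to 4120 (1129), and that of WT day 4 against day 1 was 3189 (4853) on both groups alone. Depth is unknown, so what it limits cannot be given.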
